A study of Rattus norvegicus with 21 samples.

Results

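Rest, Oat, Acot7, Cxcl12, Zfp36l1, Mgst1 and Smad3 are 7 of the genes known as disallowed in beta cells, and they were found by name among the 28914 gene names counted in rat islets; all 7 were present and all 7 passed the filter on low counts. RNA was sequenced from whole islets of Langerhans of Lewis rats, as polyadenylated RNA, 4 weeks after an operation. The 11 PX animals had undergone a 90% partial pancreatectomy, and the 10 sham animals had the sham operation. The labels describe all rats as 4-5 week Lewis rats without saying whether that is their age, and give each animal an average BG before sacrifice with no unit. Libraries are named by the number in their label. Each has its own number, several share a BG value, and each is taken as 1 animal.

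Disallowed genes are transcribed in most tissues but held at very low levels in mature beta cells, the insulin-secreting cells that make up most of an islet. Silencing of some of them is known to keep insulin release tied to glucose, and higher expression has been described in beta cells that lose their mature state. Whole islets also hold other endocrine cells, vessels, fibroblast-like cells and macrophages, in which many of these genes are normally active. The 7 genes have unlike roles. Rest encodes a repressor of neuronal genes. Smad3 encodes a transducer of TGF-beta signals, Zfp36l1 an RNA-binding protein that promotes decay of AU-rich messages, and Cxcl12 a chemokine of stromal and vascular cells. Mgst1 encodes a membrane-bound glutathione transferase, Oat the mitochondrial ornithine aminotransferase, and Acot7 a thioesterase that hydrolyses long-chain acyl-CoA.

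Of the 7 genes, 6 rose in PX islets and 1, Acot7, did not pass the test (edgeR, quasi-likelihood fit; p adjusted by Benjamini-Hochberg over 13136 genes, threshold 0.05). In the same test 14.9% of all genes were called higher, 16.2% lower and 31.1% in either direction. The median log2 fold change, PX over sham, was 0.93 for the 7 genes and -0.04 for all genes tested. With library totals alone as the scale, in place of TMM factors (factors that correct library totals for a few very abundant transcripts), the median of all genes was -0.28, 990 genes were called higher and 2227 lower against 1961 and 2127, and 4 of the 7 genes rose. Because islets were sequenced whole, more RNA per cell and more cells that carry the RNA cannot be told apart.

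Windows of 300 bases were read, from 250 before to 50 after the start of the gene. In 3 of the 7 genes, Mgst1, Rest and Zfp36l1, the window held an AP-1-like site (TGANTCA, N any base, on either strand). This pattern is looser than the AP-1 element bound by Fos and Jun family factors. The letters were TGACTCA in Rest and TGATTCA in Mgst1 and Zfp36l1. These 3 genes had the highest fold changes, and their promoters were picked for display with the fold changes known. Several motifs were scanned and only the AP-1-like site is marked. A link of any motif to the fold changes was not tested. The promoters come from RefSeq on build GRCr8, where all 7 genes were matched by symbol. They run 5′ to 3′ along the gene's strand with the AP-1-like site in capitals. The Mgst1 window is chr4:172760680-172760979 on the plus strand, that of Rest chr14:31233402-31233701 on the minus strand and that of Zfp36l1 chr6:104668641-104668940 on the minus strand.
Mgst1: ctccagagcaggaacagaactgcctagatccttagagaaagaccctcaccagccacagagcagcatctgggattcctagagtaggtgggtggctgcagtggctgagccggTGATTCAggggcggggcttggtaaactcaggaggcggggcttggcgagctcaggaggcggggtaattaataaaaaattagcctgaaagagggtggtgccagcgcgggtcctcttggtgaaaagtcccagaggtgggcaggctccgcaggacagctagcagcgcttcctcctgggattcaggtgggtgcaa
Rest: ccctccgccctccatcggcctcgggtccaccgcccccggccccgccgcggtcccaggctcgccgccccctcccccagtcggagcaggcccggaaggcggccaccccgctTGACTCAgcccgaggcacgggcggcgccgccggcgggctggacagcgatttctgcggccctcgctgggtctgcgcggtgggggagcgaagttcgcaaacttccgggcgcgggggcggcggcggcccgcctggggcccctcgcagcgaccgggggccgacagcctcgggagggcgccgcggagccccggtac
Zfp36l1: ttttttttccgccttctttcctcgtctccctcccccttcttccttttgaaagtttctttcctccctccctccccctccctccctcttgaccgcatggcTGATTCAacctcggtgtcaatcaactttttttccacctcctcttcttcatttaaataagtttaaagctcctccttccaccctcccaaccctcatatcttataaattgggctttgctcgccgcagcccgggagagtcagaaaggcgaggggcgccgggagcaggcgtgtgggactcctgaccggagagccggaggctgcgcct
The sites begin 140 bases before the gene start in Mgst1, 141 in Rest and 152 in Zfp36l1, and 7.33% of all 33469 promoter windows hold one. In Rest the same letters overlap a core of the antioxidant response element (TGACNNNGC), which 12.1% of windows hold. A GC box (GGGCGG) was found in the windows of 6 of the 7 genes and not in that of Zfp36l1, against 33.1% of all windows, and the TATA box (TATAAA) in Zfp36l1 alone, against 14.2%. The left half-site of the RE1 element that REST binds (CAGCACC, in 6.78% of windows) and the E-box (CACGTG, in 6.42%) were in none of the 7 windows. CpG dinucleotides numbered 44 in Rest, 40 in Acot7, 34 in Smad3, 23 in Cxcl12, 21 in Oat, 14 in Zfp36l1 and 9 in Mgst1. The median over all windows was 7. The share of G and C ran from 54.3% in Zfp36l1 to 80.3% in Rest, against a median of 51.7% over all windows. A match of letters is a description of the window, and the factors' binding was not measured.

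Mgst1, which conjugates glutathione to reactive compounds at internal membranes, had the widest separation. Its level was 6.06, 18.1 and 40.9 CPM (counts scaled to library size with TMM factors; lowest, median and highest) in PX islets, against 1.59, 3.11 and 4.08 CPM in sham islets. Every PX library lay above every sham library, as for 1.55% of all genes tested. The highest PX levels were in PX 62, PX 65 and PX 58 and the lowest in PX 44. Mgst1 averaged 20.4 ± 12.9 CPM in PX (SD, n = 11) and 2.90 ± 0.838 CPM in sham (SD, n = 10), a 6.89-fold rise and a log2 fold change of 2.78 ± 0.33 (SE; edgeR, Benjamini-Hochberg adjusted p = 2.9e-06). These levels rest on 39 to 316 reads per PX library and 9 to 36 per sham library.

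Rest, the repressor that keeps neuronal genes silent outside neurons and that beta cells, like neurons, normally lack, rose 3.14-fold. It had 4.24, 8.28 and 16.9 CPM in PX islets (lowest, median and highest), against 1.99, 2.65 and 4.26 CPM in sham islets. The groups overlapped only through sham 46, the highest sham library, which lay just above PX 44, the lowest PX library; the other 10 PX libraries were above all sham libraries. The means were 9.07 ± 3.84 CPM in PX (SD, n = 11) and 2.87 ± 0.698 CPM in sham (SD, n = 10), with a log2 fold change of 1.65 ± 0.22 (edgeR, Benjamini-Hochberg adjusted p = 9.5e-06). Reads were few, from 28 to 152 per PX library and from 13 to 39 per sham library.

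Zfp36l1, a decay factor of short-lived messages, rose 2.18-fold. Its level was 7.92, 19.4 and 32.5 CPM in PX islets, against 6.31, 8.29 and 13.5 CPM in sham islets (lowest, median and highest). In 9 of 11 PX libraries it lay above the highest sham library, and PX 57 and PX 44 lay within the sham range. The log2 fold change was 1.13 ± 0.21 (edgeR, Benjamini-Hochberg adjusted p = 2.6e-04).

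Cxcl12, the chemokine that draws CXCR4-bearing cells, rose 1.91-fold. It had 33.4, 66.5 and 82.6 CPM in PX islets, against 21.6, 29.9 and 66.1 CPM in sham islets (lowest, median and highest). The groups overlapped, with 6 of 11 PX libraries above the highest sham library. Sham 46, at 66.1 CPM, stood far above the next sham library at 41.1 CPM, and PX 44, at 33.4 CPM, stood below the next PX library at 48.5 CPM. The log2 fold change was 0.93 ± 0.17 (edgeR, Benjamini-Hochberg adjusted p = 3.1e-04).

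Smad3, which carries TGF-beta signals to the nucleus, rose 1.83-fold, and Oat, which converts ornithine towards glutamate and proline, rose 1.40-fold. Smad3 had 5.28, 12.03 and 19.7 CPM in PX islets, against 4.32, 5.99 and 10.9 CPM in sham islets (lowest, median and highest). In 6 of 11 PX libraries Smad3 lay above the highest sham library, while PX 44 and PX 57 lay below the sham median. The log2 fold change was 0.87 ± 0.22 (edgeR, Benjamini-Hochberg adjusted p = 0.0043).

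Oat, the most expressed of the 7 genes in sham islets by reads per length, had 23.01, 43.2 and 53.4 CPM in PX islets, against 23.7, 28.7 and 39.4 CPM in sham islets (lowest, median and highest). The groups overlapped, with 6 of 11 PX libraries above the highest sham library and the lowest value of all in PX 37. The log2 fold change was 0.48 ± 0.14 (edgeR, Benjamini-Hochberg adjusted p = 0.0089). Unlike Mgst1, Rest, Cxcl12 and Smad3, whose lowest PX level was in PX 44, Oat had 49.5 CPM there, above the PX median.

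Acot7 was the exception. It had 2.44, 4.87 and 8.44 CPM in PX islets, against 2.79, 4.78 and 8.68 CPM in sham islets (lowest, median and highest). The ranges of the groups all but coincided, and no PX library lay above the highest sham library. The log2 fold change was -0.15 ± 0.23 (95% interval from -0.61 to 0.30; edgeR, Benjamini-Hochberg adjusted p = 0.64). The interval does not show equal levels.

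**Figure D1:**
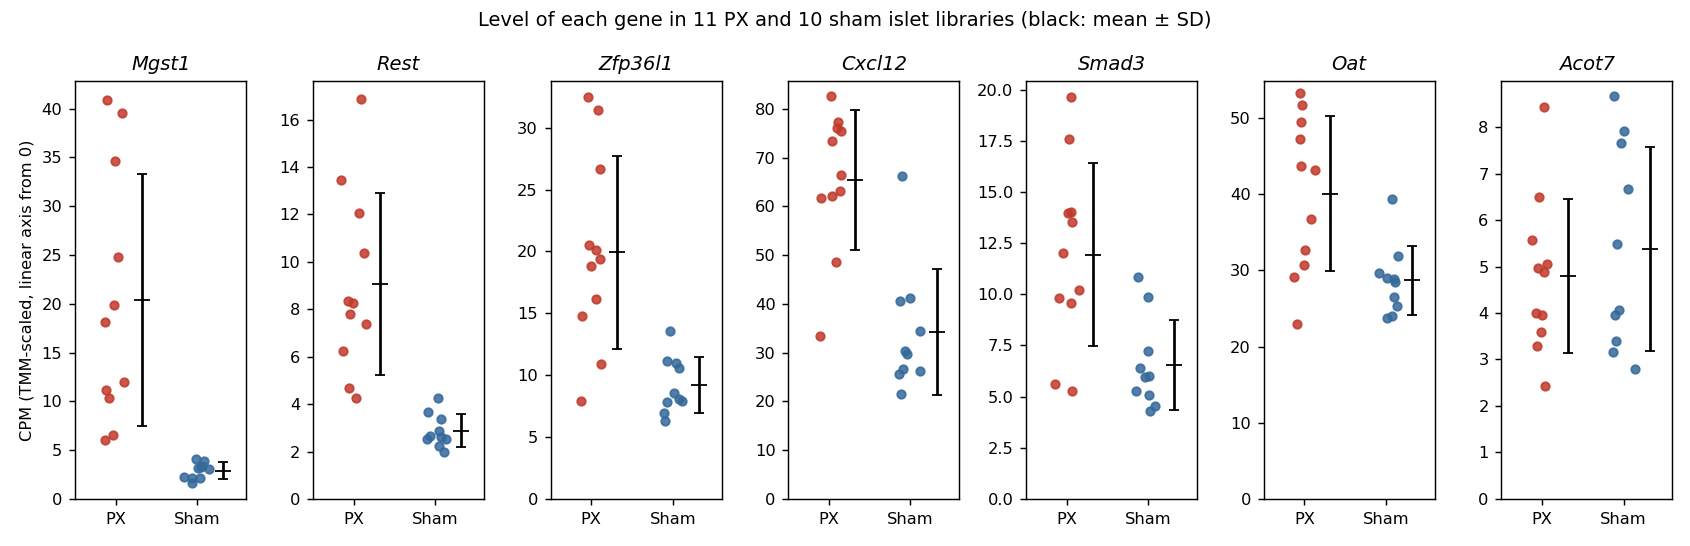
Level of each of the 7 genes in CPM (vertical axis, linear from 0), 1 point per library, PX left and sham right in each panel, with mean ± SD in black. For Mgst1 the lowest of 11 PX libraries (6.06 CPM) lies above the highest of 10 sham libraries (4.08 CPM), and for Acot7 the groups cover the same range.

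In the authors' deposited table the log2 fold changes of the 7 genes ran from -0.09 for Acot7 to 2.51 for Mgst1, with adjusted p from 1.1e-04 to 0.0132 for the 6 genes called here and adjusted p = 0.81 for Acot7. The test behind that table is limma, per the submitters' processing notes.

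Levels of the genes were compared per kilobase of exon. In PX islets Mgst1 was highest, at 21.5 ± 13.6 CPM per kb, followed by Oat (18.7 ± 4.75), Cxcl12 (12.1 ± 2.65), Zfp36l1 (7.30 ± 2.85), Acot7 (2.77 ± 0.958), Smad3 (2.37 ± 0.888) and Rest (2.14 ± 0.905; SD, n = 11). In sham islets Oat led, at 13.4 ± 2.13 CPM per kb, followed by Cxcl12 (6.31 ± 2.38), Zfp36l1 (3.37 ± 0.828), Acot7 (3.11 ± 1.27), Mgst1 (3.06 ± 0.882), Smad3 (1.30 ± 0.437) and Rest (0.677 ± 0.165; SD, n = 10). Mgst1 thus stood below Acot7 in sham islets and at the top in PX islets, and the other 6 genes kept their order. The ranges of every pair of neighbours in either order overlapped.

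Markers of other cells moved in the same libraries. The macrophage score, the mean log2 CPM of 15 markers, was 4.04 ± 0.934 in PX (range 2.76 to 5.68) and 1.46 ± 0.346 in sham (range 1.19 to 2.37), with no overlap (permutation test of means, adjusted p = 7.3e-05 over 11 library measures). The mesenchymal score was 5.90 ± 0.632 in PX and 4.17 ± 0.496 in sham (adjusted p = 7.3e-05, permutation test), and the endothelial score 6.13 ± 0.210 in PX and 5.68 ± 0.276 in sham (adjusted p = 0.0015, permutation test). The duct score was 5.58 ± 0.453 in PX and 4.11 ± 0.356 in sham, with no overlap (adjusted p = 7.3e-05, permutation test). The acinar score was 11.2 ± 1.23 in PX and 9.41 ± 2.05 in sham (adjusted p = 0.037, permutation test), but sham libraries split by animal number. It was 10.5 to 11.7 in sham 46 to 50, within the PX range of 9.47 to 13.8. In sham 21 to 24, 73 and 74 it was 6.33 to 9.42, below every PX library, so the difference lay in these sham libraries. Acinar markers held from 0.605% of all counts in sham 22 to 47.2% in PX 65. Of the markers tested, 15 of 15 macrophage, 14 of 15 mesenchymal and 6 of 10 endothelial genes rose. So did 4 of 20 acinar, 7 of 10 duct and 2 of 2 lymphocyte genes. No gene of these lists was called lower. Examples were the scavenger receptor Msr1 with a log2 fold change of 4.68 ± 0.47, the matrix protein Dcn at 2.15 ± 0.23 and the endothelial receptor Tie1 at 0.82 ± 0.12. Endocrine markers moved the other way only in part. Of 11 beta cell genes 4 fell, 1 rose and 6 were not called. Of 8 alpha and delta cell genes 4 fell and 4 were not called, with the largest fall in Sst, by 1.21 ± 0.17 on the log2 scale. Of 6 Schwann cell and neuron genes 2 rose and 1 fell. With library totals as the scale 2 of 10 endothelial, 1 of 20 acinar and 4 of 10 duct genes rose, 0 of 11 beta cell genes rose, and 1 of 6 Schwann cell and neuron genes rose. Without PX 65 no acinar marker rose, without sham 21 or sham 22 the beta cell genes that fell were 2, and without sham 73 or sham 74 the alpha and delta cell genes that fell were 2. No marker in the count table was at 0 in all libraries, but of 12 lymphocyte markers there 10 did not pass the filter on low counts, Cd3e and Ms4a1 included.

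Within the 11 PX libraries, where the operation does not differ, 2 of the 7 genes followed the macrophage score and 1 the mesenchymal score past the threshold. Mgst1 had a Pearson r of 0.94 with the macrophage score and a Spearman rho of 0.95 (permutation tests, adjusted p = 0.0078 and 0.0059 over 98 relations; r = 0.93 without the 2 libraries farthest from the median score). Of all genes tested, 0.548% had an r with that score as high. Rest had r = 0.86 and rho = 0.78 with the macrophage score (permutation tests, adjusted p = 0.015 and 0.13), r = 0.77 without the 2 farthest libraries, and 2.44% of genes had an r as high. Zfp36l1 went with the mesenchymal score, at r = 0.90 and rho = 0.84 (permutation tests, adjusted p = 0.012 and 0.090). Its r was 0.86 without the 2 farthest libraries, and 0.792% of genes had an r as high as 0.90. Other relations had a high r but did not pass. With the mesenchymal score r was 0.79 for Rest, 0.73 for Mgst1 and 0.74 for Smad3 (permutation tests, adjusted p = 0.056, 0.11 and 0.10). Zfp36l1 had r = 0.70 with the macrophage score and with the endothelial score (permutation tests, adjusted p = 0.11 for each).

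Cxcl12 followed vessels and stroma in the 10 sham libraries, where the macrophage score is low. Its r was 0.91 with the endothelial score and its rho 0.84 (permutation tests, adjusted p = 0.015 and 0.090), and r was 0.71 without the 2 farthest libraries. With the mesenchymal score r was 0.90 and rho 0.68 (permutation tests, adjusted p = 0.021 and 0.23), but r was 0.60 without the 2 farthest libraries, so that relation rests in part on them. In PX the r of Cxcl12 with the endothelial score was 0.68 (permutation test, adjusted p = 0.12). Among the 7 genes themselves 1 of 42 pairings within a group passed, Mgst1 with Rest in PX, at r = 0.87 and rho = 0.83 (permutation tests, adjusted p = 0.015 and 0.090; r = 0.81 without the 2 farthest libraries). All these values share libraries and the TMM scale. No relation of Oat, Acot7 or Smad3 passed in either group.

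**Figure D2:**
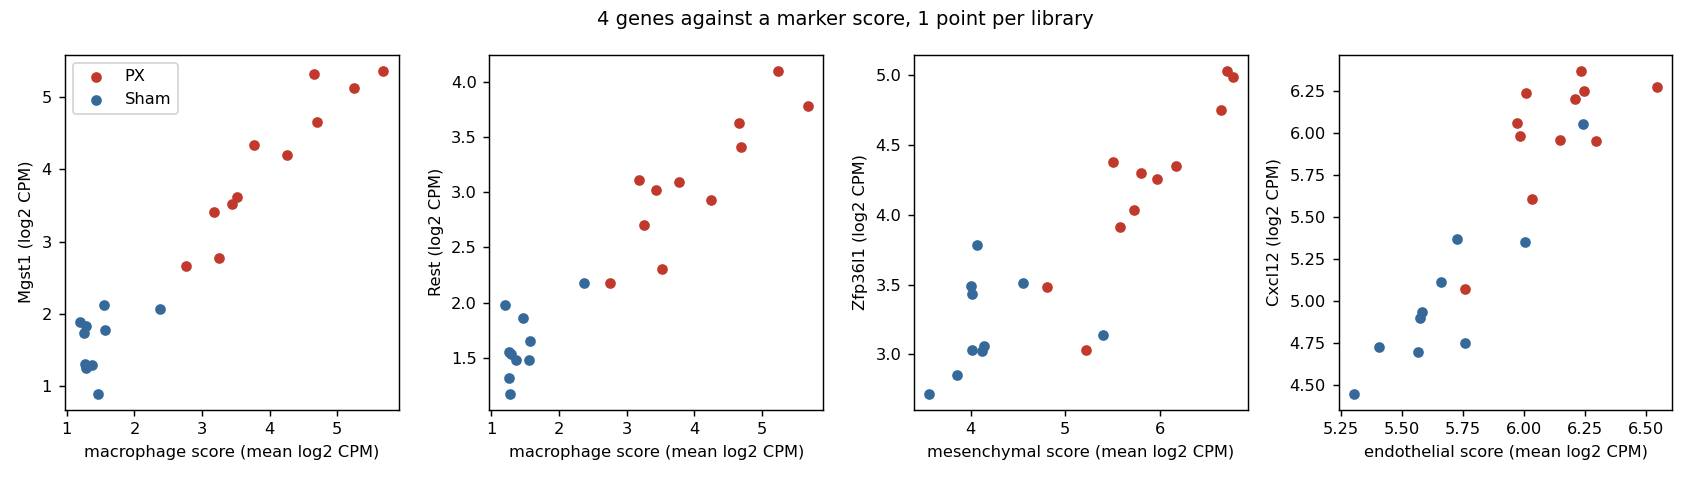
Log2 CPM of Mgst1, Rest, Zfp36l1 and Cxcl12 (vertical axes) against the macrophage, macrophage, mesenchymal and endothelial score (horizontal axes, mean log2 CPM of the markers), 1 point per library, PX in red and sham in blue. Mgst1 rises with the macrophage score along the 11 PX libraries (r = 0.94), and Cxcl12 of sham 46 lies among the PX libraries.

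The fold changes were fitted again with marker scores as covariates. With the endothelial score, Mgst1, Rest and Oat kept their calls, at log2 fold changes of 2.48, 1.41 and 0.68 (edgeR adjusted p = 0.0039, 0.0058 and 0.017), while Cxcl12, Zfp36l1 and Smad3 did not, at 0.35, 0.60 and 0.66 (adjusted p = 0.11, 0.12 and 0.13). With the acinar score Oat and Smad3 lost their calls, at 0.36 and 0.59 (edgeR adjusted p = 0.095 and 0.072). With the macrophage and mesenchymal scores together none of the 7 genes was called. Mgst1 was then at 0.18 ± 0.30, Rest at 0.11 ± 0.30, Cxcl12 at 0.19 ± 0.25, Oat at 0.07 ± 0.21, Zfp36l1 at -0.07 ± 0.33 and Smad3 at -0.08 ± 0.42 (edgeR adjusted p from 0.78 to 0.96), and Acot7 was at -0.79 ± 0.40. In that fit 6 of 13136 genes were called in all, and group membership was itself largely predicted by the 2 scores (R squared 0.781), so operation and scores cannot be told apart in it. The part of cell composition in the rises was not tested further.

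**Figure D3:**
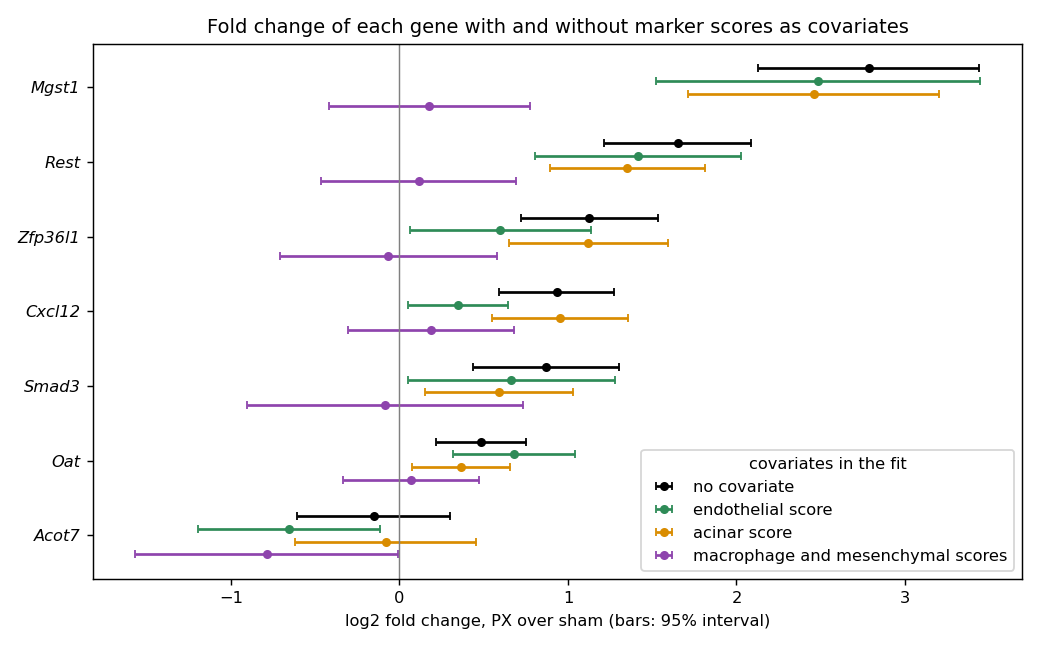
Log2 fold change of each gene, PX over sham (horizontal axis; bars are 95% intervals), fitted with no covariate and with marker scores as covariates, in the colours of the legend. Mgst1 and Rest stay above 0 with the endothelial or the acinar score and lie near 0 (0.18 and 0.11) with the macrophage and mesenchymal scores.

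Animal numbers fall into runs, each of 1 group. Against all sham libraries, PX 36 to 44 gave log2 fold changes of 2.32 for Mgst1, 1.32 for Rest, 1.22 for Zfp36l1 and 0.94 for Cxcl12, all called, and 0.43 for Oat and 0.74 for Smad3, not called (edgeR adjusted p = 0.088 and 0.063). PX 57 to 70 gave 3.15, 1.96, 1.16, 1.01, 0.62 and 1.06 in the same order of genes, all called. All PX libraries against sham 46 to 50 alone gave 0.44 for Oat and 0.68 for Smad3, not called (edgeR adjusted p = 0.14 and 0.15). Against sham 21 to 24, 73 and 74 alone Oat was at 0.56 and Smad3 at 1.12, both called (edgeR adjusted p = 0.021 and 0.0049). Without PX 44, PX 65 and sham 46 together, or without any 1 library, the 6 genes kept their calls.

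The labelled BG asks whether the genes vary with glucose among PX animals, whose BG ran from 101 to 174. Over the 11 PX libraries none of the 7 slopes passed, and 0% of 11196 genes were called (edgeR quasi-likelihood test; 1439 genes had an unadjusted p under 0.05, and DESeq2 called 17 genes, none of the 7). Without PX 65, the animal of highest BG, 320 of 11717 genes had an unadjusted p under 0.05, so the count of 1439 rests largely on that library. The largest slope was that of Mgst1, 0.17 ± 0.10 on the log2 scale per 10 units of BG (95% interval from -0.04 to 0.37; edgeR adjusted p = 0.49). The other 6 ran from -0.09 ± 0.07 for Acot7 to 0.06 ± 0.08 for Rest (edgeR adjusted p from 0.56 to 0.91). In the 3 PX animals of BG above 121 Mgst1 had 19.8 to 39.6 CPM, with a median of 24.8 CPM. In the 8 at or below 121 it had 6.06 to 40.9 CPM, with a median of 11.6 CPM, and in sham animals 1.59 to 4.08 CPM. PX animals of the lower BG thus covered the range of the others, with a lower median. With these 8 PX animals alone against sham, the 6 genes kept their calls. Mgst1 was then at 2.64 ± 0.35 and Rest at 1.64 ± 0.25 (edgeR adjusted p = 3.4e-05 and 1.1e-04). The 8 were not matched to sham for BG, which ran from 101 to 121 in them and from 82 to 104 in sham.

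**Figure D4:**
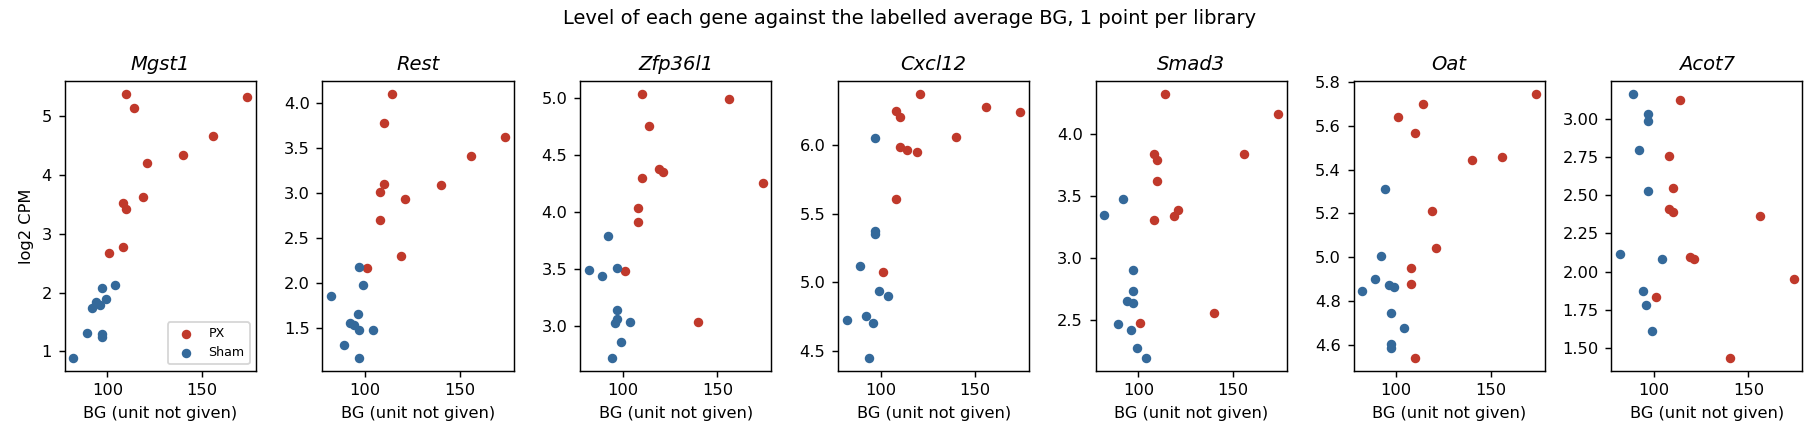
Log2 CPM of each gene (vertical axes) against the labelled average BG (horizontal axes, no unit given), 1 point per library, PX in red and sham in blue. PX animals of BG between 101 and 121 cover nearly the whole PX range of Mgst1, Rest and Zfp36l1.

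Partners of each gene were counted from lists chosen by function, beside the shares of all genes called higher (14.9%) and lower (16.2%). REST acts through corepressor complexes, and of 11 corepressor genes tested 6 fell and 0 rose, with a median log2 fold change of -0.20. Falls were small, by 0.41 ± 0.11 on the log2 scale for Sin3a, 0.34 ± 0.09 for Phf21a and 0.64 ± 0.18 for Rcor3. Of 38 genes known as REST targets, which beta cells share with neurons, 11 fell and 2 rose (28.9% and 5.26%), with a median of -0.21. On the log2 scale the potassium channel Kcnh6 fell by 0.63 ± 0.11, the sodium channel subunit Scn3b by 0.60 ± 0.13, the presynaptic gene Snph by 0.71 ± 0.15 and the cadherin Celsr3 by 0.82 ± 0.19. Chga, Scg2, Snap25 and Gjd2, also targets, had log2 fold changes of -0.01, -0.08, -0.18 and -0.28, none called, and the 2 that rose were Ptprn by 0.67 and Syt4 by 0.42; these 6 were picked after their values were seen. Beside these falls the beta cell and alpha and delta cell markers fell in part too, as given above.

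Around Smad3 the ligands and receptors of TGF-beta were mixed, with 4 rises and 2 falls of 11, and target genes rose as a group. Tgfbr2, the type II receptor, rose by 0.71 ± 0.14 on the log2 scale, the co-receptor Eng by 0.58 ± 0.14 and the ligand Tgfb3 by 0.70 ± 0.19, while the activin receptor Acvr2b fell by 0.73 ± 0.24. With library totals as the scale none of the 11 rose and their median was -0.06, against 0.18. Of 11 other SMAD genes and inhibitors 1 rose (Tgif1, a corepressor, by 1.01 ± 0.37) and 1 fell (Smad5, of the BMP branch, by 0.39 ± 0.11). All 15 genes listed as SMAD3 targets rose, with a median of 1.45, among them Timp1 at 3.71 ± 0.60, Itgb6 at 1.59 ± 0.29 and Col1a2 at 2.45 ± 0.37. Several of these, collagens included, are also mesenchymal markers, and 3 genes stand on both lists.

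Of 6 genes around CXCL12, 4 rose. Its receptors Cxcr4 and Ackr3 rose by 1.32 ± 0.22 and 1.04 ± 0.20 on the log2 scale, and Dpp4 and Mmp2, proteases that cleave it, by 1.62 ± 0.23 and 2.56 ± 0.37. Cxcr4 averaged 28.8 ± 12.5 CPM in PX (SD, n = 11) and 11.5 ± 3.44 CPM in sham (SD, n = 10). Around Zfp36l1, of 13 genes of its family and of message decay 5 fell and 1 rose, with a median of -0.28. The deadenylase subunits Cnot6l and Cnot3 fell by 0.67 ± 0.11 and 0.57 ± 0.15 and the decapping gene Dcp1a by 0.46 ± 0.13, and Mapkapk2, a kinase that acts on the family, rose by 0.37 ± 0.11. Its paralogs Zfp36 and Zfp36l2 had log2 fold changes of 0.51 and -0.14, neither called; these 2 were picked after their values were seen.

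Of 18 genes of glutathione use and of the MAPEG family to which Mgst1 belongs 8 rose and 0 fell, with a median of 0.38. Alox5ap, a MAPEG protein of leukotriene synthesis in myeloid cells, rose by 2.42 ± 0.34, Gpx1 by 2.09 ± 0.40, Gsta1 by 1.46 ± 0.28 and Gstp1 by 1.02 ± 0.23. The MAPEG relatives Mgst2 and Mgst3 rose by 1.27 and 0.87, while Gclc and Gclm, the subunits of the enzyme that makes glutathione, had log2 fold changes of 0.17 and -0.14 and were not called; these 4 were picked after their values were seen. Around Oat 3 of 13 genes rose, Odc1, which makes polyamines from ornithine, by 0.78 ± 0.19, Arg1 by 0.57 ± 0.17 and Arg2 by 1.69 ± 0.50. Glul had a log2 fold change of -0.23 ± 0.09 and was not called. Around Acot7 1 of 7 other thioesterase genes rose, Acot9, of mitochondria, by 0.70 ± 0.14, and Acot3, Them4 and Acot11 had values of -0.21, -0.12 and 0.15, none called. With library totals as the scale the medians of the ornithine and thioesterase lists turned from 0.16 and 0.02 to -0.08 and -0.24.

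Of 17 other disallowed genes tested 14 rose and 0 fell, with a median log2 fold change of 1.18. Arhgdib, abundant in leukocytes, rose by 2.21 ± 0.25, Cd302 by 2.27 ± 0.28, Hk2 by 2.69 ± 0.38 and Cavin1, of caveolae, by 1.18 ± 0.18. Acot7 was thus one of 4 disallowed genes not called, with Tst, Smoc2 and Cat, which are named after their values were seen. Some of these counts depended on covariates or on single libraries. Fitted beside the acinar score, the falls were 0 of 11 corepressors, 7 of 38 REST targets and 1 of 13 decay genes, and the rises 4 of 18 glutathione genes and 1 of 13 ornithine genes. With the endothelial score 5 of 15 SMAD3 targets rose and 0 of 11 TGF-beta ligands and receptors. With PX 36 to 44 as the only PX libraries 0 of 11 corepressors and 3 of 38 REST targets fell. Without sham 74 the corepressors that fell were 3 of 11, and without sham 24 the decay genes that fell were 3 of 13. None of the TGF-beta ligands and receptors fell without sham 24, sham 73, sham 74 or PX 41. The single rise among the SMAD genes was lost when any of several single libraries was left out, sham 21 and PX 41 among them. Without sham 46 the ornithine genes that rose were 5 of 13. In the fit with the macrophage and mesenchymal scores no gene of any of these partner lists was called.

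**Figure D5:**
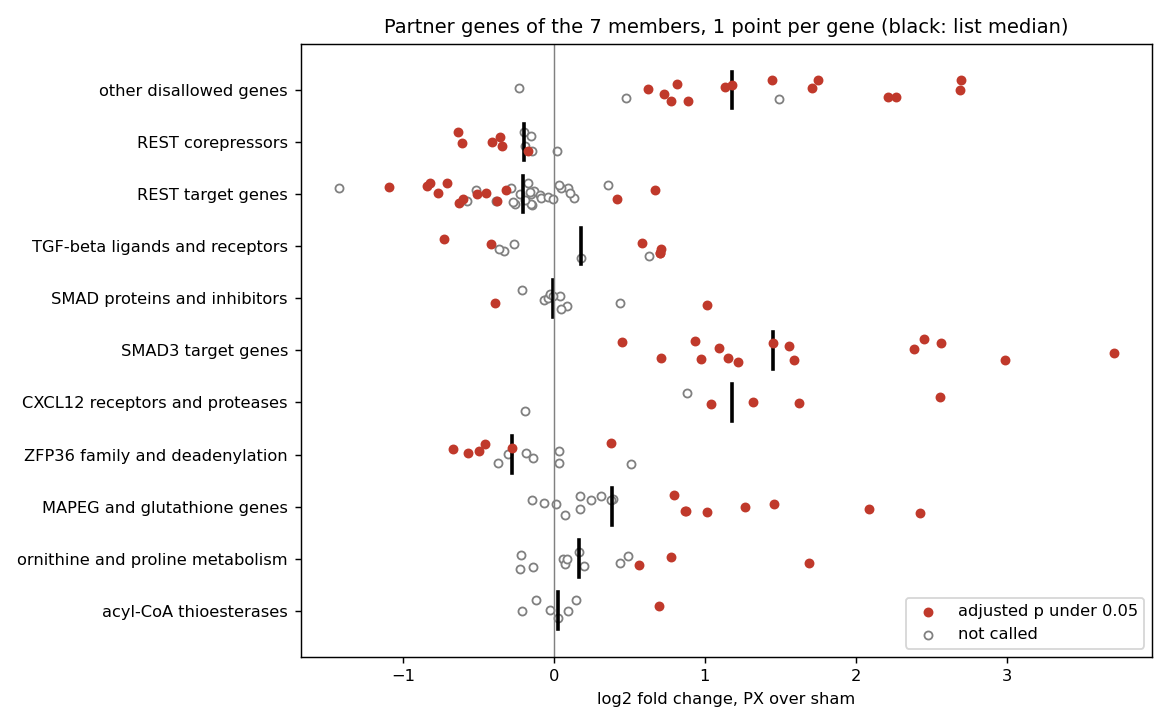
Log2 fold change, PX over sham (horizontal axis), of each gene in 11 lists of partners of the 7 genes (rows), red where the adjusted p was under 0.05 and white where not, with the list median as a black bar. The SMAD3 target genes lie wholly above 0 and the REST corepressors mostly below it.

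For each of the 7 genes the 3 other genes of most similar pattern were found from log2 CPM centred within each group and scaled to an SD of 1, as the root mean square difference over the 21 libraries among 13129 genes; over all genes its median was 1.35 to 1.40 SD. Nearest to Mgst1 were Hsd11b1, Ifngr2 and S100a10 (0.39, 0.42 and 0.44 SD), and nearest to Rest were Fermt3, S100a4 and Vsir (0.41, 0.42 and 0.43 SD). Cxcl12 was nearest to Lonrf2, Ctgf and Adamts2 (0.43, 0.45 and 0.49 SD), and Zfp36l1 to Bmp2k, Myadm and Amz1 (0.45, 0.49 and 0.58 SD). Smad3 was nearest to Fam129a, Cdk6 and St14 (0.50, 0.57 and 0.57 SD), Oat to Tomm5, LOC100365810 and Anxa4 (0.40, 0.50 and 0.55 SD), and Acot7 to Cuta, LOC691143 and Adam15 (0.64, 0.64 and 0.65 SD). Of these 21 genes, those nearest to Rest had the highest log2 fold changes, 2.47 ± 0.39 for Fermt3, 3.30 ± 0.48 for S100a4 and 2.66 ± 0.34 for Vsir. The nearest genes of Acot7 were at 0.11, -0.10 and 0.14, none called.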

How the data were processed

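Per the submitters' processing notes, the authors used FastQC, Subread, featureCounts and limma. Tool versions: not given in the sources used here; likewise the build and whether counting used strand, without which a gene and its antisense partner cannot be separated. The deposited counts are whole reads per gene name, with 1 column for each sample, matched by title. The authors' deposited comparison holds a log2 fold change, its fold ratio, a mean log2 expression and p-values for each gene, per the file headers. Library totals ran from 4001908 to 13187959 counts in PX and from 4695195 to 11266015 in sham.

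Here TMM factors and robust quasi-likelihood fits came from edgeR 4.0.16 (R 4.3.3). Genes passed filterByExpr with a count of at least 10 and a total of at least 15. One fit used all 21 libraries (13136 genes), the other BG per 10 units over the 11 PX libraries (11196 genes). Tests were two-sided, with Benjamini-Hochberg adjustment over all genes and a threshold of 0.05. Each SE was derived from the fold and its F value. Log2 CPM used a prior count of 2. Scores and correlations were tested by permutation with 100000 resamples in scipy 1.17.1, the correlations adjusted over 98 relations.

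Named genes are the 7 members, up to 4 genes of each list by p, and the 3 nearest in pattern to each member. Values of 2 genes this rule names are not reported here. Genes named outside it are marked in the text as picked after their values were seen. Members, lists and tests were chosen with earlier results of these data known. Alternatives were other scalings (DESeq2 1.42.0 size factors, library totals), other filters, DESeq2, limma 3.58.1 voom, marker scores as covariates, parts of the groups and each library left out; list counts under these were added after seeing the data. Tested on simulated counts, PX against sham over 13136 genes recovered 80% of log2 changes of 1 and 29% of those of 0.5, and the BG fit over 11196 genes 73% of slopes of 0.25.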

Additional observations from a re-analysis of the deposited data

Results flagged for a closer look

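Among the 10 sham libraries the macrophage score of sham 46 was 2.37, against 1.56 for the next highest, a gap large for the range of the group. Of 16 measures examined this way, the 7 genes and 9 marker scores, this was the 1 that stood out, and chance marks about 1 in 20. The mesenchymal score of sham 46, 5.40 against 4.55 for the next highest, fell just short of the same limit. Sham 46 also had the highest endothelial, duct and lymphocyte scores of the sham group, and the highest Rest and Cxcl12 levels, at 4.26 and 66.1 CPM.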

How the results depend on the processing

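For PX against sham 4088 genes were called, against 6414 with voom quality weights, 6 with the macrophage and mesenchymal scores, 2393 with the endothelial score, 2272 with the acinar score, 2550 with PX animals of BG 121 or less, 1375 with PX 36 to 44, 1583 with sham 46 to 50, and 3292 to 4550 with 1 library left out. Of the 7 genes, 6 were called, against 0 with the macrophage and mesenchymal scores, 3 with the endothelial score, and 6 to 6 with 1 library left out. Calls of Oat and Smad3 also ended with library totals (log2 fold changes 0.23 and 0.62, edgeR adjusted p = 0.31 and 0.050) and with sham 46 to 50 (0.44 and 0.68, adjusted p = 0.14 and 0.15); over all alternatives their adjusted p reached 0.92 and 0.96. Signs turned for Zfp36l1 (-0.067) and Smad3 (-0.084) with the macrophage and mesenchymal scores, and for Acot7 with PX animals of BG 121 or less (0.029), PX 57 to 70 (0.051), sham 46 to 50 (0.0064) and without PX 44, PX 65 and sham 46 (0.086); the cause was not tested. For the BG slope 0 genes were called, against 6 without a filter, 17 by DESeq2, 4 with all libraries and group as a term, and 0 to 1 with 1 library left out; the 1 call came without PX 41. None of the 7 genes was called in any. Slopes turned with library totals for Rest (-0.032), Oat (-0.044), Cxcl12 (-0.023), Zfp36l1 (-0.032) and Smad3 (-0.047), and for Zfp36l1 between PX animals above and at or below 121 (-0.086) and with the macrophage and mesenchymal scores (-0.037); it ran from -0.049 to 0.077 with 1 library left out. Acot7 did not pass the filter in 5 of the BG fits with 1 library left out. The low counts of Rest and Mgst1 in sham limit their precision. No paired analysis was possible because the groups share no animal numbers.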
